A study of Arabidopsis thaliana with 6 samples.

Results

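The jasmonate and touch response genes described here are 10 genes, chosen by name from the 33318 named genes of the deposited tables. They are the repressor genes *JAZ1*, *JAZ5*, *JAZ7*, *JAZ8* and *JAZ10*, the jasmonate synthesis genes *LOX2* and *AOS*, the storage protein gene *VSP2* and the calmodulin-like genes *TCH2* and *TCH3*. All 6 libraries were made from the second internode of stems that carry *pPXY:GR-ARF5∆III/IV* (written *PXY:GR-MPΔIII/IV* in the labels), grown in the Col-0 background until the plants were 15 to 20 cm tall. The transgene is driven by the *PXY* promoter, which is active in cambium stem cells, and encodes an ARF5 protein that escapes AUX/IAA repressors and reaches the nucleus only in the presence of dexamethasone (Dex). The plants had grown at 21 °C, for 3 weeks in short days (8 h light) and then in long days (16 h light). In the 3 Dex libraries plants had been dipped in 15 µM Dex, watered with Dex and harvested after 3 h. In the 3 mock libraries they had been dipped in and watered with mock solution, which held the solvent without Dex. Both groups thus carry the transgene, and both were handled, wetted with solvent and surfactant, and cut. Dex-treated plants without the transgene were not analysed here, and an effect of Dex itself cannot be told apart from that of the transgene.

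Jasmonates are lipid-derived hormones made in plants after wounding, herbivory and mechanical stress. The bioactive form, jasmonoyl-isoleucine, joins the receptor COI1 to JAZ proteins, which are then degraded, and MYC transcription factors held back by the JAZ proteins become active. The *JAZ* genes are themselves targets of this response, and in leaves many of them are induced early after wounding. The touch (*TCH*) genes were found in *Arabidopsis* as transcripts that accumulate soon after plants are sprayed or bent. Whole internodes were sampled, so fewer cells of a type and less RNA per cell cannot be told apart in any of the values.

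Before the levels, 3 of the promoters are shown, because they hold the motifs that were searched in the members. Each is the stretch of 150 bases that ends just before the annotated start of the gene in TAIR10.1, read 5′ to 3′ on the strand of the gene, and the capitals mark the matches. The choice of these 3 was made after the matches were seen.
TCH2: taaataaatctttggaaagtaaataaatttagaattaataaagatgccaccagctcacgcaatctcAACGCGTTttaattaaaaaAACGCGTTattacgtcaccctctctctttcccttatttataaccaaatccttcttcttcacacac
JAZ7: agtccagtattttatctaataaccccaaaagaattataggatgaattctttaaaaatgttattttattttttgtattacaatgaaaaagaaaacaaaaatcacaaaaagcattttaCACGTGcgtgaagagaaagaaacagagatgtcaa
JAZ8: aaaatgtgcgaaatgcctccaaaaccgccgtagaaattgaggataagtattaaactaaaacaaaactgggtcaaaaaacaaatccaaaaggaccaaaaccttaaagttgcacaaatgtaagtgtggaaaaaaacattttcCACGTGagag
The *TCH2* stretch lies at chr5:14999620-14999769 on the minus strand. Those of *JAZ7* and *JAZ8* lie at chr2:14572880-14573029 and at chr1:10596202-10596351, both on the plus strand.

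The motifs were searched on both strands of the 250 bases before the start of 27437 protein-coding nuclear genes. The G-box CACGTG, which is the same on both strands and is known to be bound by MYC factors, was present in *JAZ7*, *JAZ8* and *AOS*, and in 6.49% of all promoters. The sequence CGCGTT, of the CGCG type known to be bound by calmodulin-binding CAMTA factors, was present in *TCH2* and in 2.59% of all promoters. In *TCH2* it lay inside 2 copies of the palindrome AACGCGTT, which counts as CGCGTT on each strand. This palindrome was present in 69 of the promoters (0.251%), and it was noticed after the search. The related CGCGTG (2.57% of promoters) and the auxin response element TGTCGG (4.16%) were found in none of the 9 promoters of the set that are reported, and the auxin response element TGTCTC (10.9%) was found in *VSP2* alone among them. These matches describe letters only.

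None of the 10 genes differed between Dex and mock libraries by the test used here. The levels of *JAZ1*, *AOS* and *TCH2* were close in both groups, and those of *JAZ10*, *LOX2*, *VSP2* and *TCH3* varied up to several-fold among libraries of the same group. Enough reads for a test, by edgeR's filter, were found for 8 of the 10 genes, among them *LOX2*, which had the counts the filter asks for only in mock replicate 1 and the Dex libraries. The number called was 0 higher and 0 lower with edgeR's quasi-likelihood test at an adjusted p under 0.05, where 4.63% of the 19347 genes tested were called higher with Dex and 2.07% lower. At an unadjusted p under 0.05 the number was also 0, against 22.6% of all tested genes. DESeq2, limma-voom and edgeR's exact test called 0 of them as well, against 12.1%, 6.19% and 11.2% of all tested genes. In none of the 10 genes did the mock and Dex libraries fall into separate ranges, which they did in 27.3% of tested genes. The median log2 fold change of the 8 tested genes was 0.02, with 4 above and 4 below 0, and that of all tested genes was −0.01. A p that misses the threshold does not show equal levels, and the interval of each difference is therefore given. Nothing in the labels says that the libraries of a group came from separate experiments, so that the p-values measure the spread between these libraries.

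**Figure D1:**
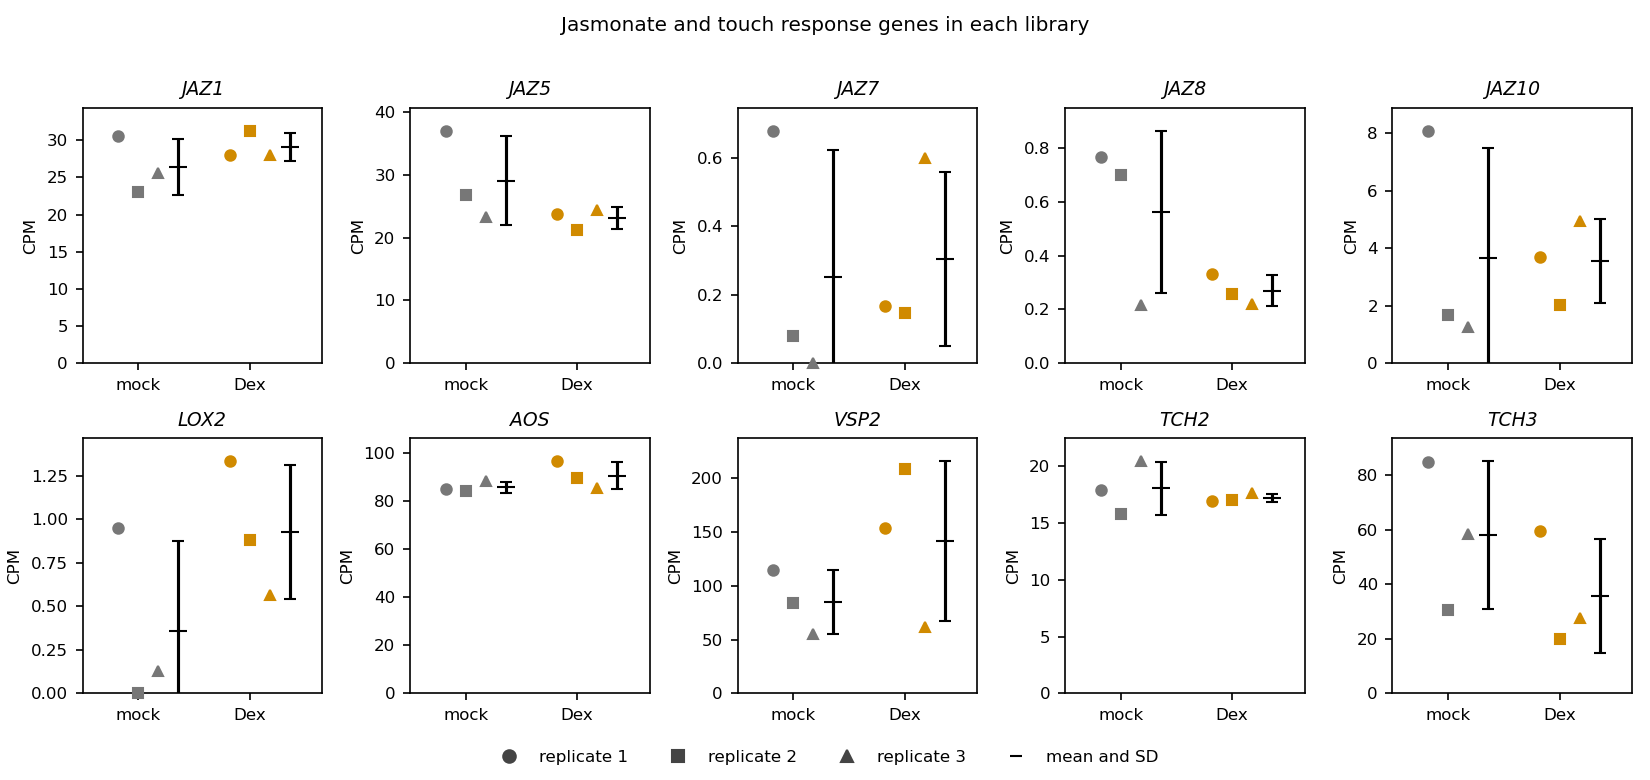
Level of each of the 10 genes in CPM (reads scaled to the library size, linear axis from 0) in 3 mock (grey) and 3 Dex (orange) libraries, with the replicate number as the symbol and mean and SD as bars, which end at 0 where the SD exceeds the mean. Mock and Dex libraries overlap in all 10 genes, and *JAZ10*, at 8.08 CPM in mock replicate 1, shows the library that lies far above the other mock libraries.

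The level is given as CPM, reads over the library size scaled with edgeR's TMM factors. *JAZ1* (AT1G19180) encodes a founding JAZ repressor. Its level was 30.5, 23.1 and 25.6 CPM in mock replicates 1 to 3 and 28.0, 31.2 and 28.0 CPM in the Dex libraries. The Dex libraries lay in and just above the upper part of the range of the mock libraries. The log2 fold change was 0.14 (SE 0.128, adjusted p = 0.563), and the 95% interval of the fold was 0.901 to 1.35.

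*JAZ5* (AT1G17380, chr1:5955155-5957511) encodes a further repressor of this family. It was at 37.0, 26.8 and 23.3 CPM in the mock libraries and at 23.8, 21.2 and 24.4 CPM in the Dex libraries. Mock replicate 1 was the highest of the 6 libraries, and without that library the groups would still overlap. The change was 0.797-fold (95% interval 0.610 to 1.04, log2 fold change −0.33, SE 0.170, adjusted p = 0.293).

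*JAZ10* (AT5G13220, chr5:4218786-4221077) encodes a repressor known for splice forms that resist degradation and dampen the response. It was at 8.08, 1.67 and 1.25 CPM in the mock libraries and at 3.71, 2.02 and 4.94 CPM in the Dex libraries. Mock replicate 1 lay above the Dex libraries and the other mock libraries lay below them. The fitted change was 0.975-fold (95% interval 0.347 to 2.74, log2 fold change −0.04, SE 0.658, adjusted p = 0.983). When mock replicate 1 was left out, the log2 fold change became 1.27 (adjusted p = 0.208). An RNA gene on the opposite strand (AT5G02045) overlaps *JAZ10* in the reference. The deposited counts held no entry for AT5G02045, and the sources used here do not say whether reads were counted by strand.

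*JAZ7* (AT2G34600, chr2:14573030-14573952) and *JAZ8* (AT1G30135, chr1:10596352-10597341) encode short repressors, of which JAZ8 is known to lack the degron that COI1 recognises and to recruit the corepressor TOPLESS directly. *JAZ7* had 15, 2 and 0 reads in the mock libraries and 4, 4 and 19 reads in the Dex libraries. A count of 0 in mock replicate 3 allows a level of up to 0.129 CPM (3 reads, for counting error only). *JAZ8* had 17, 18 and 5 reads in the mock libraries and 8, 7 and 7 reads in the Dex libraries. Both genes failed the filter on low counts and were near the limit of detection in every library. In the fit without that filter the log2 fold change was 0.31 for *JAZ7* (adjusted p = 0.915) and −1.05 for *JAZ8* (adjusted p = 0.505).

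*LOX2* (AT3G45140, chr3:16525245-16529352) encodes the plastid lipoxygenase that supplies much of the jasmonate of wounded leaves. It had 21, 0 and 3 reads in the mock libraries and 32, 24 and 18 reads in the Dex libraries. The 0 reads in mock replicate 2 allow up to 0.117 CPM. Mock replicate 1 lay within the range of the Dex libraries. The change of 2.60-fold has a 95% interval of 0.557 to 12.2 (log2 fold change 1.38, SE 0.980, adjusted p = 0.445), and the interval holds both a fall and a large rise. The log2 fold change was 3.78 without mock replicate 1 (adjusted p = 0.117) and 0.77 without mock replicate 2 (adjusted p = 0.540).

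*AOS* (AT5G42650, chr5:17097564-17099595) encodes allene oxide synthase, which takes the product of the lipoxygenases into the jasmonate branch. It was at 84.7, 84.0 and 88.2 CPM in the mock libraries and at 96.3, 89.3 and 85.3 CPM in the Dex libraries. The lowest Dex library lay below the highest mock library. The change was 1.05-fold (95% interval 0.915 to 1.22, log2 fold change 0.08, SE 0.0901, adjusted p = 0.658). This was the narrowest interval among the 8 genes tested.

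*VSP2* (AT5G24770, chr5:8500468-8502224) encodes a vegetative storage protein with acid phosphatase activity and is a common readout of MYC-dependent jasmonate responses. It was at 114, 84.1 and 55.2 CPM in the mock libraries and at 154, 208 and 61.7 CPM in the Dex libraries. Dex replicates 1 and 2 lay above every mock library and Dex replicate 3 lay among them. The change was 1.67-fold (95% interval 0.888 to 3.14, log2 fold change 0.74, SE 0.402, adjusted p = 0.314).

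*TCH2* (AT5G37770, chr5:14997514-14999619) and *TCH3* (AT2G41100, chr2:17137037-17139700) encode calmodulin-like proteins that bind calcium. *TCH2* was at 17.9, 15.8 and 20.4 CPM in the mock libraries and at 16.9, 17.0 and 17.6 CPM in the Dex libraries. All Dex libraries lay inside the mock range, and the change was 0.953-fold (95% interval 0.780 to 1.16, log2 fold change −0.07, SE 0.128, adjusted p = 0.790). A gene on the opposite strand, AT5G37760, overlaps *TCH2* and had 0 reads in the mock libraries and 6, 2 and 2 reads in the Dex libraries.

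*TCH3* was at 84.8, 30.7 and 58.5 CPM in the mock libraries and at 59.5, 19.9 and 27.7 CPM in the Dex libraries. Dex replicate 1 lay above mock replicates 2 and 3, and the other Dex libraries lay below every mock library. The change was 0.615-fold (95% interval 0.311 to 1.22, log2 fold change −0.70, SE 0.434, adjusted p = 0.379). Genes on the opposite strand (AT2G09220 and AT2G41105) overlap *TCH3* in the reference, and the deposited counts held no entry for them. Of the *TCH3* reads, 98.8% mapped to 1 place only, and the share was higher in the other 9 genes.

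**Figure D2:**
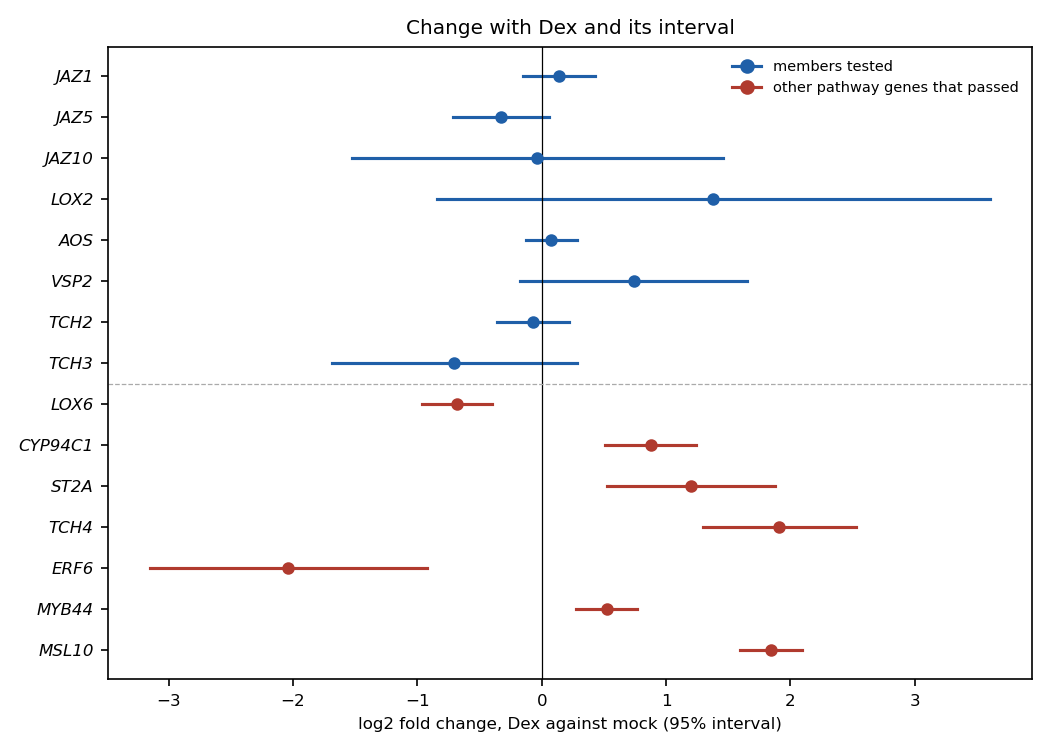
Log2 fold change between Dex and mock libraries (points, edgeR's quasi-likelihood fit) and its 95% interval (lines) for the 8 tested genes of the set in blue and the 7 other jasmonate and touch genes that passed the test in red. Every blue interval spans 0, and that of *LOX2* (0.557-fold to 12.2-fold) is the widest.

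Levels between genes were compared per length, on RPKM as deposited (reads scaled by exon length and library total, mean of 6 libraries), and the 10 genes spanned 0.220 to 75.0 RPKM. *VSP2* came first at 75.0 RPKM (36.1 to 138 over the libraries), followed by *AOS* at 48.8 (45.5 to 55.5), *TCH3* at 33.3 (14.1 to 58.6), *TCH2* at 22.9 (20.7 to 26.3), *JAZ5* at 22.5 (18.6 to 30.7) and *JAZ1* at 18.1 RPKM (15.2 to 20.5). *JAZ10* (2.30 RPKM, 0.793 to 5.02), *JAZ8* (0.734 RPKM), *JAZ7* (0.405 RPKM) and *LOX2* (0.220 RPKM) followed. The ranges of neighbours in this order overlapped, so that they did not differ beyond their spread, with the exception of *JAZ1* and *JAZ10*.

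The JAZ members were not the most abundant of their family in the internode. Among the 13 genes listed as JAZ repressors, *JAZ9* (213 RPKM) and *JAZ12* (151 RPKM) were the most abundant, ahead of *JAZ2* (69.9 RPKM) and *JAZ6* (51.1 RPKM), which were singled out after their values were seen. *JAZ5* and *JAZ1* came next in that order by mean, *JAZ10* lay below *JAZ4* (2.59 RPKM), and of the 5 JAZ members *JAZ7* and *JAZ8* were the lowest. *LOX2*, at 0.220 RPKM, was likewise the lowest of the lipoxygenase genes listed, below *LOX3* (1.15 RPKM), *LOX4* (1.28 RPKM) and *LOX6* (13.9 RPKM), whereas *AOS* had the highest mean of the jasmonate synthesis list after *KAT2* (123 RPKM), a thiolase of the last steps in the peroxisome, though its range overlapped those of *OPCL1* (46.8 RPKM) and *OPR3* (46.4 RPKM), which were named after their values were seen.

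The genes differed in how far the libraries of 1 group lay apart. The SD over the mean of CPM in the mock libraries was 0.0261 for *AOS*, 0.128 for *TCH2*, 0.143 for *JAZ1*, 0.244 for *JAZ5*, 0.350 for *VSP2*, 0.466 for *TCH3*, 1.04 for *JAZ10* and 1.43 for *LOX2*. That of *AOS* was above those of only 3.27% of tested genes and that of *JAZ10* above those of 99.1%. The highest mock library exceeded the lowest 6.47-fold in *JAZ10*, 2.76-fold in *TCH3* and 2.07-fold in *VSP2*, but only 1.05-fold in *AOS*. Among the Dex libraries these ratios were 2.45 for *JAZ10*, 3.38 for *VSP2* and 1.04 for *TCH2*. The median SD over the mean of the 8 tested genes was 0.297 in the mock and 0.244 in the Dex libraries, beside 0.141 and 0.106 over all tested genes.

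Mock replicate 1 carried the higher levels of several jasmonate genes. It was the highest mock library in 6 of the 8 tested genes, beside 27.9% of all tested genes, and the highest of all 6 libraries in 3 of them, beside 18.0%. *JAZ10* was 5.53-fold higher there than in the mean of the other mock libraries, *TCH3* 1.90-fold, *VSP2* 1.64-fold, *JAZ5* 1.48-fold and *JAZ1* 1.25-fold, whereas *AOS* (0.984-fold) and *TCH2* (0.989-fold) were level. Other genes of the jasmonate lists, singled out after their values were seen, had the same high library. *VSP1*, the close relative of *VSP2*, was at 93.8, 24.5 and 22.7 CPM in the mock libraries and at 31.6, 44.7 and 18.6 CPM in the Dex libraries. *CYP94B3*, a cytochrome P450 that hydroxylates jasmonoyl-isoleucine, had 101, 0 and 0 reads in the mock libraries and 34, 10 and 30 reads in the Dex libraries. *AOC2*, an allene oxide cyclase, was at 61.2, 30.1 and 20.8 CPM in the mock libraries, and *TAT3*, a tyrosine aminotransferase, at 33.4, 7.98 and 12.7 CPM. By list, the highest mock library was replicate 1 in 7 of 10 tested JAZ repressors, 12 of 15 synthesis genes, 8 of 10 turnover genes and 6 of 10 output genes, in 4 of 4 mechanosensitive channel genes and 3 of 7 touch calmodulin and wall genes, but in 3 of 10 genes of perception and 1 of 13 rapid transcription factors. By rank the high library was thus not limited to jasmonate genes. In size, mock replicate 1 exceeded the mean of the other mock libraries only 1.15-fold in *MSL10*, 1.07-fold in *MCA1* and 1.04-fold in *OSCA1*, all channel genes. The excess was 1.72-fold in the channel gene *MCA2*, which had 20, 6 and 19 reads in the mock libraries. *OSCA1* and *MCA2* were named after their values were seen. The counts by list describe the libraries, since genes that move together are not independent.

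**Figure D3:**
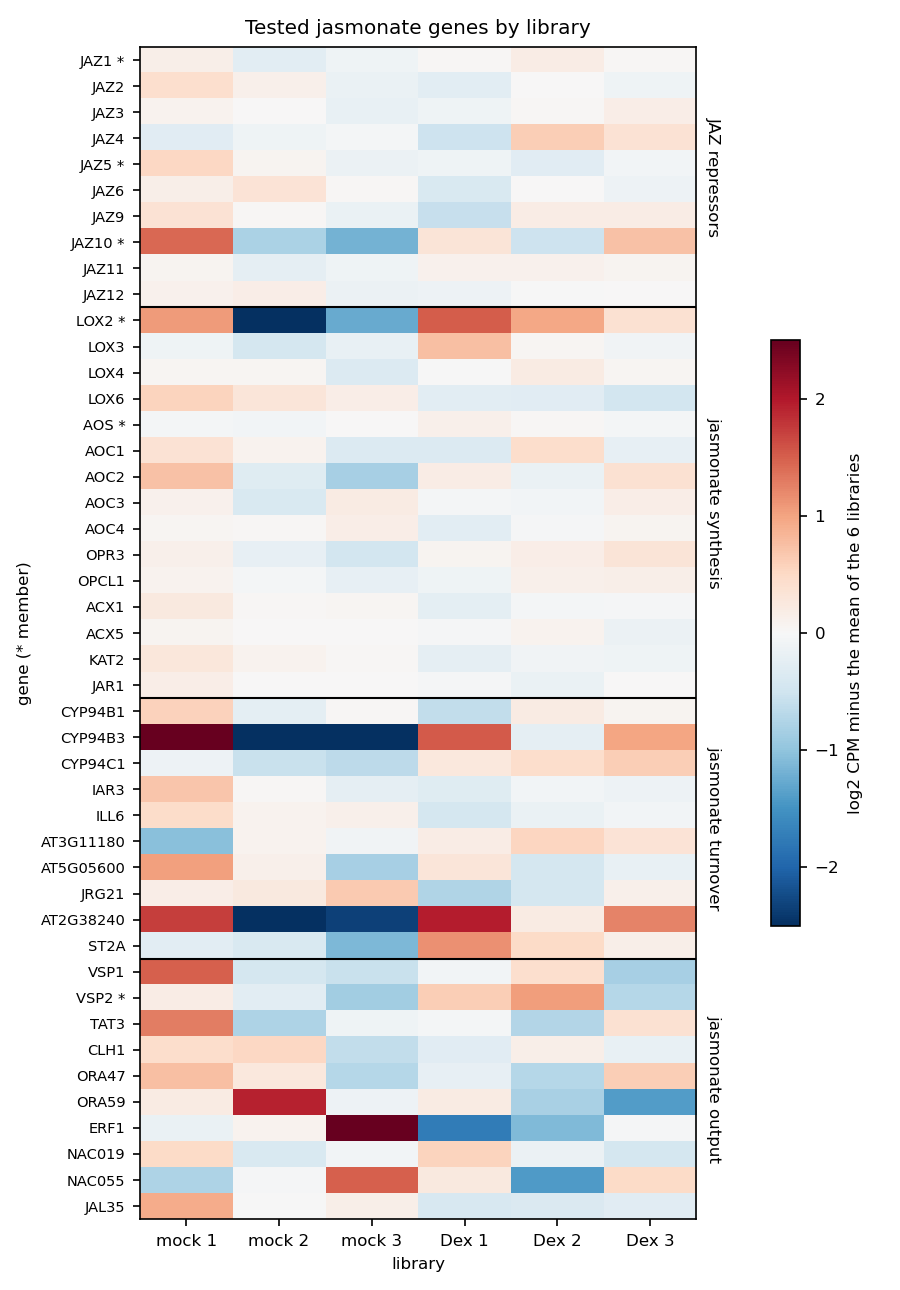
Log2 CPM of 45 tested jasmonate genes in the 6 libraries, each gene minus its mean over the libraries (red above, blue below, colours limited at 2.5, which 6 values exceed). Stars mark the genes of the set, and *JAZ10*, *VSP1*, *CYP94B3* and *TAT3* are highest in mock replicate 1.

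Green cortex markers differed between the mock libraries. The summed level of 8 green cortex markers was 20299.9 and 18756 CPM in mock replicates 1 and 3, 11157 CPM in mock replicate 2 and 8971 to 12549 CPM in the Dex libraries. All 8 had reads in every library, and none of them passed the test with all 6 libraries. Their log2 fold changes were all below 0 (−0.27 to −0.89), and each was called lower in 1 of the fits without 1 library. Over all tested genes such fits called 70 to 1559 lower. The most, 7.96% of tested genes, were called without mock replicate 2, the mock library with the lowest sum of these markers. Without any other library the share was 0.357% to 1.17%. The 6 epidermis markers, with *PDF1* at 0 reads throughout, summed to 515 CPM in mock replicate 2, to 779 and 827 CPM in the other mock libraries and to 433 to 577 CPM in the Dex libraries. This gap was that of *CER1* alone, a gene of wax synthesis, without which the sums were 473, 439.7 and 438 CPM in mock replicates 1 to 3. Xylem markers (6 genes, 5471 to 6205 CPM in mock libraries and 4688 to 6568 CPM with Dex), phloem markers (5 genes, 600.0 to 689.5 and 597 to 628 CPM) and starch sheath markers (3 genes, 169 to 219.9 and 178 to 193 CPM) overlapped between the groups. The 4 cambium markers summed to 431 to 555 CPM in the mock and 569.5 to 665 CPM in the Dex libraries, with *HB8*, a known ARF5 target, called higher. Without *HB8* the sums overlapped, at 313 to 414 CPM in the mock and 316 to 390.0 CPM in the Dex libraries. *PXY* and *WOX4* had log2 fold changes of −0.11 and −0.36 (adjusted p = 0.718 and 0.161, quasi-likelihood test). *WOX4* was at 32.0, 38.5 and 46.8 CPM in the mock and at 30.6, 30.7 and 29.8 CPM in the Dex libraries (unadjusted p = 0.0283). Its groups were apart with Dex below mock, and those of *ANT* with Dex above mock (log2 fold change 0.21, adjusted p = 0.263), as groups were in 27.3% of tested genes. The 5 trichome and guard cell markers, with *GL1* at 0 reads, summed to 40.3 to 48.4 and 52.7 to 71.2 CPM, with the guard cell channel gene *KAT1* called higher. Without *KAT1* the sums were 12.4 to 16.8 and 11.8 to 17.6 CPM. Their part in the levels of the jasmonate and touch genes was not tested. Reads in named genes were 22871927 to 32099136 per library, of which 96.8% to 97.1% mapped uniquely.

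The genes around the set gave 7 calls. Lists of 92 jasmonate and touch genes, the 10 members included, held 79 tested genes, of which 5 rose and 2 fell with Dex, and these 7 are outside the set. These are 6.33% and 2.53% of the genes tested in the lists, near the 4.63% and 2.07% over all tested genes. All 7 had mock and Dex libraries in separate ranges, which adds no support, since the same libraries gave the calls. The median log2 fold change of the 79 was −0.07.

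None of the 10 tested JAZ repressors was called, and their median log2 fold change was −0.06. *JAZ9* was at 280.2 ± 52.1 CPM without and 257 ± 70.7 CPM with Dex (mean ± SD, n = 3 each), and *JAZ12* at 169 ± 18.8 and 159 ± 7.69 CPM. At an unadjusted p under 0.05 only *JAZ6* was lower.

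Among 15 tested synthesis genes (median 0.03) 0 rose and 1 fell. *LOX6*, a lipoxygenase known for early wound responses near the xylem, was at 58.0, 48.8 and 44.3 CPM in the mock and at 32.9, 32.5 and 28.7 CPM in the Dex libraries. Every Dex library lay below every mock library, and *LOX6* fell to 0.622-fold (95% interval 0.512 to 0.756, log2 fold change −0.68, adjusted p = 0.0154). *KAT2* was at 256 ± 24.2 CPM without and 210.3 ± 11.2 CPM with Dex (adjusted p = 0.169). The call of *LOX6* was lost without mock replicate 1 (adjusted p = 0.0502) and without any of the Dex replicates (0.0546 to 0.0756).

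Of 10 tested turnover genes 2 rose and 0 fell, beside 4.63% and 2.07% of all tested genes. Their median was −0.31, beside −0.01 over all tested genes, and mock replicate 1 was the highest mock library in 8 of the 10. *CYP94C1*, a cytochrome P450 that oxidises hydroxylated jasmonoyl-isoleucine, was at 28.1, 20.8 and 19.3 CPM in the mock and at 36.6, 41.6 and 47.0 CPM in the Dex libraries, a rise of 1.84-fold (95% interval 1.43 to 2.37, adjusted p = 0.0164). *ST2A*, a sulfotransferase of hydroxyjasmonate, was at 8.71, 8.02 and 4.74 CPM and at 23.3, 14.7 and 11.6 CPM, a rise of 2.30-fold (95% interval 1.44 to 3.67, adjusted p = 0.0476). Both act on hydroxylated forms of the hormone. The call of *CYP94C1* was lost without Dex replicate 2 (adjusted p = 0.0700) or 3 (0.0756), and that of *ST2A* held only when mock replicate 2 was the library left out (0.0594 to 0.155 without each of the others). With limma-voom *ST2A* was not called (adjusted p = 0.0716). DESeq2 also called the turnover gene *ILL6* lower, where it called 4.9% of all tested genes lower. *ILL6* was named after its values were seen (log2 fold change −0.46, adjusted p = 0.0954 with the quasi-likelihood test).

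None of the 10 genes of perception and MYC factors was called (median 0.07). *MYC4*, a transcription factor held by JAZ proteins, was at 131 ± 18.6 CPM without and 140.0 ± 16.4 CPM with Dex, and *NINJA*, the adaptor between JAZ proteins and TOPLESS, at 104 ± 3.09 and 112 ± 8.80 CPM. None of the 10 tested output genes was called either. Their median was −0.52, with 9 of the 10 below 0, beside 51.5% of all tested genes. Without mock replicate 1 the median was 0.0042, with 5 of the 10 below 0. When any other library was left out, it was −0.74 to −0.32, with 70% to 90% below 0. *JAL35*, a jacalin-related lectin, was at 346, 182 and 202 CPM in the mock and at 139, 142 and 149.95 CPM in the Dex libraries (log2 fold change −0.76, adjusted p = 0.0770 with edgeR's quasi-likelihood test). DESeq2 and the exact test called 2 of the 10 output genes lower, beside 4.9% and 4.37% of all tested genes. They were *JAL35* (adjusted p = 0.00646 and 0.0153) and *ERF1*, an ethylene response factor named after its values were seen (adjusted p = 0.0137 and 0.0412). Over the fits without 1 library the log2 fold change of *JAL35* was −0.93 to −0.43. It was weakest without mock replicate 1 (adjusted p = 0.111 with the quasi-likelihood test). With all 6 libraries that test gave *ERF1* a log2 fold change of −2.60 (adjusted p = 0.132). *ERF1* had 20, 28 and 199 reads in the mock and 6, 12 and 32 reads in the Dex libraries. Without mock replicate 3 its log2 fold change was −0.79 (adjusted p = 0.579 with the quasi-likelihood test).

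Of 7 tested touch calmodulin and wall genes (median −0.04) 1 rose and 0 fell. *TCH4*, a xyloglucan endotransglucosylase/hydrolase that remodels the cell wall and is known to respond also to auxin and brassinosteroids, was at 2.48, 4.56 and 4.70 CPM in the mock and at 18.8, 12.1 and 13.4 CPM in the Dex libraries. Each Dex library was above every mock library, and *TCH4* rose 3.76-fold (95% interval 2.45 to 5.77, log2 fold change 1.91, adjusted p = 0.00541), while *TCH2* and *TCH3* of the same touch series were not called. Whether the change of *TCH4* differed from theirs was not tested. *CAM2*, a calmodulin, was at 52.9 ± 7.83 CPM without and 51.6 ± 1.83 CPM with Dex.

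Of 4 tested mechanosensitive channel genes (median −0.08) 1 rose and 0 fell. *MSL10*, a channel of the plasma membrane that opens under tension, was at 59.7, 48.3 and 55.4 CPM in the mock and at 187, 196 and 204 CPM in the Dex libraries, a rise of 3.59-fold (95% interval 3.02 to 4.27, adjusted p = 5.7e-05). *MCA1*, a calcium channel component, was at 98.4 ± 3.95 and 86.6 ± 13.3 CPM. The calls of *TCH4* and *MSL10* held when any 1 of the 6 libraries was left out.

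Of 13 tested rapid touch and wound transcription factors (median −0.25) 1 rose and 1 fell. A log2 fold change below 0 was found in 10 of the 13, beside 51.5% of all tested genes. Over the fits without 1 library the share was 61.5% (8 of 13, without mock replicate 3) to 85.7%, beside 48.5% to 53.2% of all tested genes. *MYB44*, a MYB factor of stress responses, was at 49.9, 52.6 and 42.9 CPM in the mock and at 66.8, 75.1 and 66.9 CPM in the Dex libraries, a rise of 1.44-fold (95% interval 1.21 to 1.70, adjusted p = 0.0253). Other genes overlap *MYB44* in the reference, and their reads could be split differently. *ERF6*, an ethylene response factor, had 48, 63 and 100 reads in the mock and 24, 24 and 10 reads in the Dex libraries, a fall to 0.244-fold (95% interval 0.113 to 0.527, adjusted p = 0.0438). Both calls held only when mock replicate 2 was the library left out. Without each of the others the adjusted p was 0.0652 to 0.109 for *MYB44* and 0.0855 to 0.135 for *ERF6*.

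**Figure D4:**
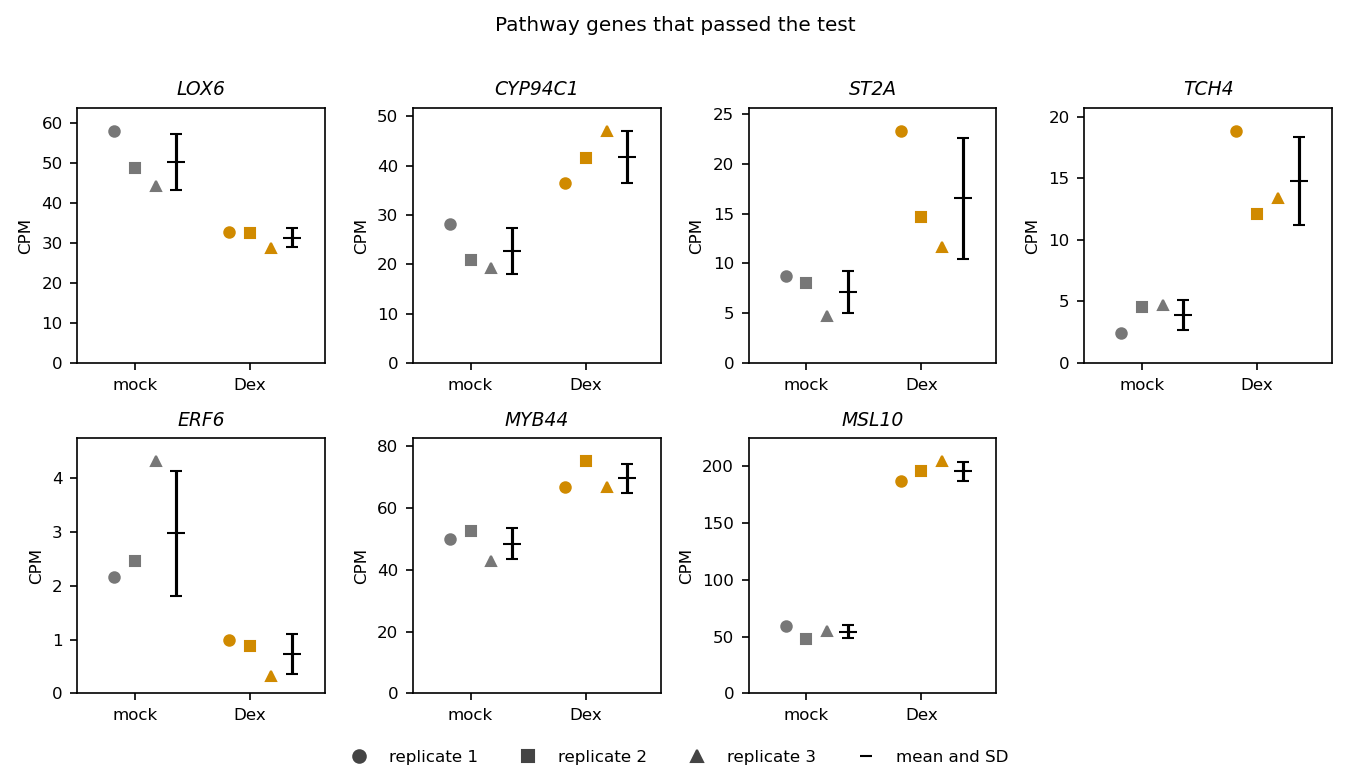
CPM (linear axis from 0) of the 7 genes of the jasmonate and touch lists that passed the test, in 3 mock (grey) and 3 Dex (orange) libraries, with replicate numbers as symbols and mean and SD as bars. The groups are apart in all 7, which were picked by the test on these same libraries, and *MSL10* goes from 54.5 to 196 CPM.

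The genes whose pattern over the 6 libraries was most like the mean of the 3 tested JAZ genes were found by Pearson's r of the log2 CPM, as a description. All points share the same 6 libraries. The means mostly follow the genes that vary most, *JAZ10* and *TCH3*, since *JAZ1* was highest in Dex replicate 2 and *TCH2* in mock replicate 3. The closest was AT2G22122 (r = 0.992), an uncharacterized gene at 208, 69.3 and 66.2 CPM in the mock and 116, 76.3 and 123 CPM in the Dex libraries, followed by AT3G28370 (0.970), AT4G22860 (0.968), *ICK3* (0.961), a gene for an inhibitor of cyclin-dependent kinases, and *sks9* (0.959). They are high in mock replicate 1, as *JAZ10* is. For *TCH2* and *TCH3* together the closest were *TIR* (AT1G72930, r = 0.993), AT4G24730 (0.991), *DSS1(V)* (0.987), *NCLPP7* (0.986), a subunit gene of a CLP protease, and *ATGA2OX1* (0.985), a gibberellin oxidase gene. *TIR* was at 70.6, 30.8 and 64.3 CPM in the mock and at 55.8, 26.6 and 35.1 CPM in the Dex libraries. Outside the lists, among all tested genes with a mean of at least 1 CPM, 7 genes reached an r of at least 0.95 with the JAZ genes and 27 with *TCH2* and *TCH3*. How many genes would reach it with an unrelated profile over 6 libraries was not tested.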

How the data were processed

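Second internodes of 3 mock and 3 Dex libraries were compared, with groups from the labels. The authors used CLC Genomics Workbench to align single-end reads to TAIR10, and deposited counts per gene (whole gene, exon, unique) and RPKM values. The tables held 33323 entries, of which 5 without a name (0.0803% to 0.0998% of reads) were left out. The methods give 3 plants for a replicate, whereas the series description speaks of 3 pooled RNA samples.

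The quasi-likelihood test of edgeR 4.0.16 (R 4.3.3) was applied to whole-gene counts after TMM (0.969 to 1.04) and its filter (minimum count 10, total 15), with Benjamini-Hochberg adjustment over 19347 genes and a threshold of 0.05. The test was tried on simulated data. Alternatives were DESeq2 1.42.0, limma 3.58.1 (voom, and log2 of RPKM plus 1 or 0.1), edgeR's exact test, RLE factors, library totals, no filter, 1 CPM in 3 libraries, exon or unique reads, unadjusted p, adjusted p under 0.01, a 1.5-fold minimum, a replicate block and leaving out each library. The members and the lists (JAZ repressors, synthesis, turnover, perception and MYC factors, output, touch calmodulins and wall, rapid transcription factors, mechanosensitive channels, tissue markers) were chosen with earlier results of these data known. Genes named are the members, in each list the called genes, lowest adjusted p first and at most 4, or the 2 of highest mean RPKM if fewer than 2 were called, and the 5 genes most like the JAZ and *TCH* profiles. Any other gene is marked in the text as singled out afterwards. Gene names, positions and promoters are from the RefSeq annotation of TAIR10.1, not from the deposited tables. It holds all 129 list genes and the names used for 124, and the others are given by locus or by its own symbol. The promoter of 1 member is not reported here.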

Additional observations from a re-analysis of the deposited data

How the results depend on the processing

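No setting called a gene of the set higher, and only the replicate block called 1 lower, *TCH3* (log2 fold change −0.74, adjusted p = 0.0330). With that block 1.35% of all tested genes were called lower (261 against 400). Equal replicate numbers are not stated to share plants, and the correlations of same-numbered libraries (−0.104, 0.000174 and 0.209 across genes) do not pair them. The sign of *JAZ10* turned with limma-voom (0.43), library totals (0.0083), the replicate block (0.31), log2(RPKM + 1) (0.18) and log2(RPKM + 0.1) (0.37), and over the fits without 1 library it was −0.44 to 1.27, with an adjusted p of 0.208 to 0.995 over all alternatives. Without 1 library the sign also turned for *TCH2* (−0.16 to 0.029), *JAZ9* (−0.25 to 0.092), *MYC4* (−0.015 to 0.19) and *CAM2* (−0.15 to 0.057, and 0.0055 and 0.0057 on the RPKM scales). *LOX2* did not pass 1 CPM in 3 libraries, which gave it no value. Relative to 5 higher and 2 lower genes in the lists, there were 8 and 9 at an unadjusted p under 0.05, 2 and 0 at an adjusted p under 0.01, 2 and 0 on log2(RPKM + 1), 3 and 0 on log2(RPKM + 0.1), and 2 to 6 and 0 to 6 without 1 library, while DESeq2 called 5 lower and the exact test 4. Over all tested genes, 895 were higher and 400 lower. DESeq2 gave 1399 and 948, the unadjusted p 2408 and 1969, an adjusted p under 0.01 305 and 62, log2(RPKM + 1) 505 and 127, log2(RPKM + 0.1) 483 and 124, the exact test 845 lower, and the fits without 1 library 337 to 1918 higher and 70 to 1559 lower, with the highest counts without mock replicate 2. The replicate block also ended the call of *ERF6* (adjusted p = 0.102). The cause of these differences was not tested.

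*JAZ7*, *JAZ8* and *LOX2* had 0 to 32 reads per library, and the mock libraries of *LOX2* and *JAZ10* lay further apart than those of more than 99% of tested genes. The intervals of *JAZ5*, *JAZ10*, *LOX2*, *VSP2* and *TCH3* include changes of more than 1.5-fold. Strand use in counting is not given, so antisense reads cannot be told apart.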

Other observations

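Outside the test, *JMT*, the methyltransferase that makes volatile methyl jasmonate, had 0, 1 and 3 reads in the mock and 11, 20 and 10 reads in the Dex libraries. It failed the filter on low counts and was singled out after its values were seen. AT2G38240, annotated as an oxygenase and likewise singled out afterwards, had 59, 1 and 2 reads in the mock and 76, 24 and 60 reads in the Dex libraries, so that mock replicate 1 lay with the Dex libraries.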
